A study of Caenorhabditis elegans with 51 samples.

Results

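A set of 3 gene families of *Caenorhabditis elegans* that are read mainly in sperm-forming germ cells were followed across 8 mutant strains: the major sperm protein genes (*msp*), the *nspd* genes (nematode-specific peptide family, group D) and the *ssp* genes (sperm-specific family, class P). Every row whose symbol is *msp*, *nspd* or *ssp* followed by a hyphen and a number was taken, which gave 50 genes (30 *msp*, 9 *nspd* and 11 *ssp*) in both filtered tables, out of 14033 genes in one and 14596 genes in the other. Whole hermaphrodites were collected as young adults before they became fertile, after growth at 20 °C on bacterial plates, and their mRNA was sequenced with 1 library per biological replicate. The first experiment holds 39 libraries: 6 each of worms with the *daf-2(e1370)*, *nuo-6(qm200)*, *isp-1(qm150)* or *clk-1(qm30)* allele, 3 each of *sod-1*, *ctl-1* and *prdx-2* worms, and 6 of N2 wild-type worms (WT 7 to WT 12). The second experiment holds 12 libraries, namely 6 of *sod-2(ok1030)* worms and their own 6 N2 libraries (WT 1 to WT 6), and each mutant was compared only with the WT libraries of its own experiment. The alleles of *sod-1*, *ctl-1* and *prdx-2* are not given in the sources used here, and the 7 comparisons of the first experiment share the same 6 WT libraries.

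The mutated genes fall into 3 kinds. *clk-1* encodes an enzyme of ubiquinone synthesis, *isp-1* the Rieske iron-sulfur protein of respiratory complex III and *nuo-6* a subunit of complex I, and *daf-2* encodes the insulin/IGF1 receptor. The other genes encode enzymes that remove reactive oxygen species: cytosolic and mitochondrial superoxide dismutase (*sod-1* and *sod-2*), a catalase (*ctl-1*) and a peroxiredoxin (*prdx-2*).

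As background, hermaphrodites of this species make sperm late in larval life and then switch to oocytes, so that a young adult carries finished sperm beside a growing oogenic germ line. Major sperm protein assembles into the fibres that drive the crawling of the amoeboid sperm and is also released as a signal that starts oocyte maturation. Transcription stops as spermatids form, so the mRNA of these genes is made in cells that are making sperm. How much of the mRNA measured here was left over from sperm formation already completed was not tested. The *ssp* genes encode small proteins with an MSP-like domain, and the *nspd* genes encode short nematode-specific peptides whose mRNA is enriched in sperm-forming germ lines.

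The members sit in clusters. On the WBcel235 assembly, 25 of the 50 lie on chromosome IV, 16 on chromosome II, 6 on chromosome I, 2 on chromosome V and 1, *nspd-9*, on chromosome III. All 30 *msp* genes are on chromosomes II and IV, 14 of them between positions 4785898 and 5810330 of chromosome II and 16 between positions 5055631 and 10143740 of chromosome IV. Their genes are short: 48 of the 50 are annotated without an intron, 27 of the 30 *msp* genes are 384 bases long, the *nspd* genes are 213 to 222 bases and the *ssp* genes 324 to 451 bases. The members *msp-42* and *msp-71* are annotated as pseudogenes, and the identifier listed as *ssp-11* carries the name *ssp-9* in the newer annotation used here. The reads were assigned to genes only where they map uniquely, so reads that fit more than 1 of these near-identical copies are missing from the count of each. The level of any 1 copy is uncertain by the reads so lost.

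In WT worms of the first experiment the members ranged from a mean of 1.14 normalized CPM (reads of a gene divided by a TMM-corrected library total, on a scale common to all libraries) for *ssp-36* to 117 for *msp-36*, with 30 members at 20 or above and 13 under 5. The most abundant *msp* genes in WT worms were *msp-36* (chromosome IV, positions 10095433 to 10095816, 117 normalized CPM), *msp-81* (chromosome IV, positions 9836034 to 9836417, 105) and *msp-76* (chromosome IV, positions 9689015 to 9689398, 87.6). Expressed per kilobase of coding length, so that genes of unequal length can be compared, these levels were 305, 274 and 228 normalized CPM per kilobase, close to the 301 and 298 of the leading *nspd* genes, *nspd-2* and *nspd-1*. The leading *ssp* genes were lower on the same per-length scale, at 112 for *ssp-10*, 95.8 for *ssp-16* and 84.7 for *ssp-34*. This order of abundance, here and below, is that of the filtered values. In the earlier counts of the second experiment, described below, WT worms had a mean of 9637 reads per library for *msp-65* and 3602 for *msp-36*. Those counts gave 2570 for *ssp-9* and 1127 for *ssp-10*. The 50 members together took 0.0891% to 0.199% of the reads of a WT library, and every member had at least 6 reads in each of the 39 libraries and at least 4 in each of the 12.

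Several facts of the whole series bear on what follows. Library depth was 21434437 to 28805205 reads (median 24483360) in the first experiment and 22586580 to 33412986 reads (median 28780416) in the second. The mutated gene was below every WT library in *clk-1*, *sod-1*, *prdx-2* and *sod-2* worms, while *ctl-1* mRNA was 1.93, 2.23 and 2.98 normalized CPM in the libraries labelled *ctl-1*, overlapping the 1.78 to 2.80 of WT worms. The *isp-1*, *nuo-6* and *daf-2* alleles are point mutations, for which the level of the mRNA is no check. Across the experiments, WT 1 and WT 8, WT 3 and WT 11, WT 6 and WT 12, WT 4 and WT 9, and WT 2 and WT 10 differed by an SD of only 0.109 to 0.181 in log2 value over 10381 genes. Any other pair of WT libraries across the experiments differed by at least 0.266, so the WT libraries of the 2 experiments may not be independent and no result of one is set beside the other as a repeat.

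A further feature sets the error of every comparison: these genes rise and fall together from one library to the next within a strain. WT 10 held the lowest WT value of 44 of the 50 members, WT 2 of 48, *sod-2* replicate 2 of 46, *sod-1* replicate 1 of 45, *clk-1* replicate 3 of 42 and *nuo-6* replicate 2 of 39. The summed level of the 30 *msp* genes in WT worms thus ran from 746 normalized CPM in WT 10 to 1529, with a median of 1244. In 8 of the 10 groups of libraries the same library was lowest for the *msp*, the *nspd* and the *ssp* sum, whereas the same library was highest for all 3 sums in 3 of the 10. Both WT groups are among the 8, with WT 10 and WT 2 as their lowest libraries. As WT 2 and WT 10 are one of the close pairs named above, they may not be separate cases. In a whole-worm library, fewer spermatogenic cells per worm and less mRNA per cell cannot be told apart. The sums of 23 oocyte and eggshell genes moved with some of these libraries and not with others: they were 3831 normalized CPM in WT 10 (the other WT libraries reached up to 9879), 2835 in *nuo-6* replicate 2 and 1360 in *sod-2* replicate 2, but 12031 in *prdx-2* replicate 1, which held the lowest *prdx-2* value of 37 members. The part of this spread between libraries in any result below was not tested. For the same reason, a count of members in any comparison below is not a count of separate observations.

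**Figure D1:**
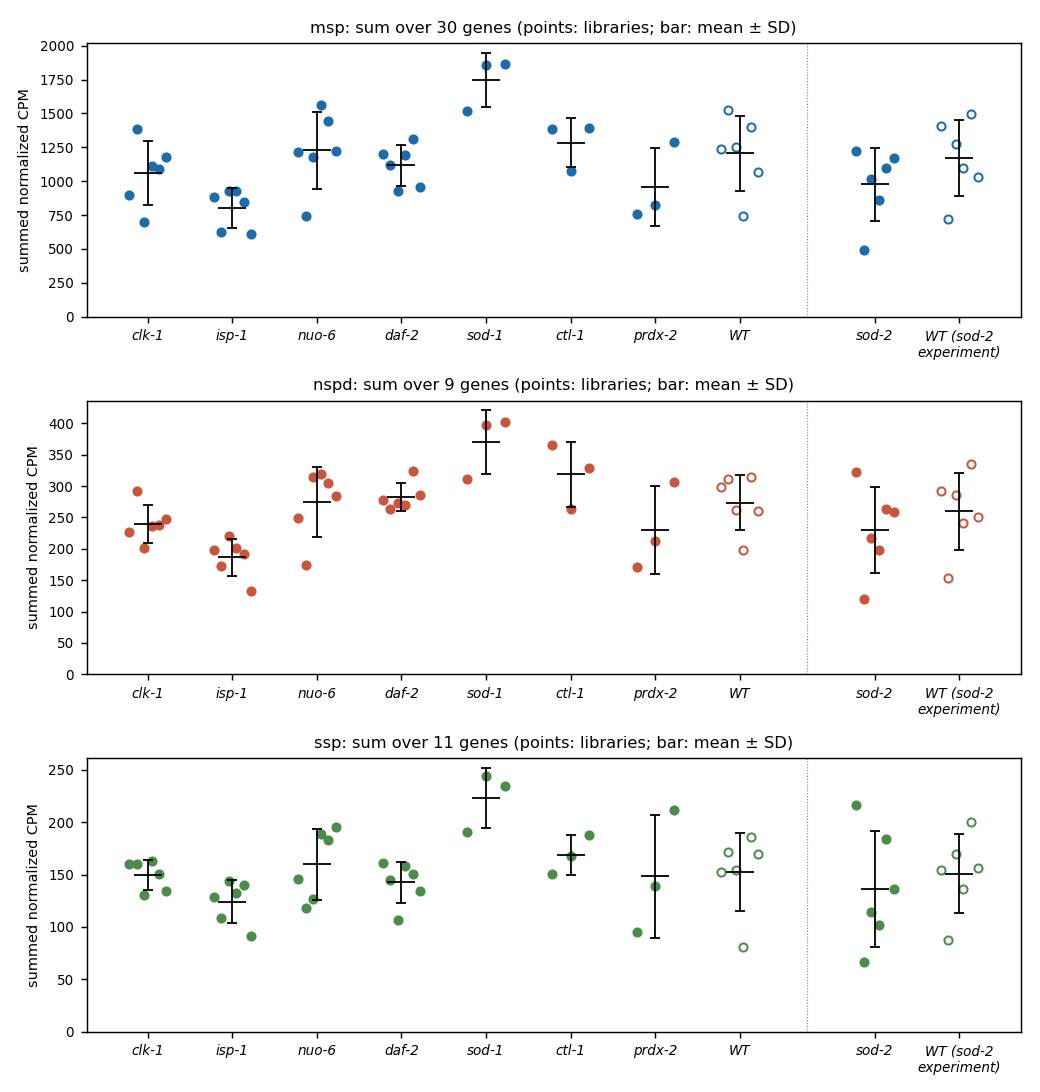
Summed level of the 30 *msp*, 9 *nspd* and 11 *ssp* genes in each library, in normalized CPM, one panel per family; filled points are mutant libraries, open points WT libraries, and bars give the mean ± SD, with a dotted line before the *sod-2* experiment. The *isp-1* libraries lay low, at 607 to 928 for *msp* against 746 to 1529 in WT, and the *sod-1* libraries lay high, at 1519 to 1862.

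In *isp-1* worms 22 of the 50 sperm protein genes, mostly *msp* and *nspd* genes, were called lower than in WT worms. In *isp-1* worms the *msp* genes summed to 607, 865 and 928 normalized CPM (lowest, median, highest; mean 803 ± 147, SD, n = 6), against 746, 1244 and 1529 in WT worms (mean 1206 ± 274, SD, n = 6), a ratio of means of 0.666. The *nspd* sum was 134, 194 and 221 in *isp-1* worms, against 198, 280 and 314 in WT worms, a ratio of 0.680, and 4 of 6 *isp-1* libraries lay below every WT library. The *ssp* sum differed less, at 91.6, 130 and 144 in *isp-1* worms, against 80.7, 162 and 186 in WT worms (ratio 0.815), and here the groups overlapped over most of their range. Gene by gene, limma on log2 of the value plus 0.5, with Benjamini-Hochberg adjustment over all 14033 genes and a threshold of 0.05, called these 22 members lower and 0 higher, and 8 of the 50 log2 fold changes were above 0. By the same rule 10.3% of all genes were called lower and 11% higher, and 49% of all genes had a log2 fold change above 0. These 22 calls are not 22 separate observations, since the members move together within a library. The calls comprised 15 of 30 *msp*, 6 of 9 *nspd* and 1 of 11 *ssp* genes. edgeR on reads recovered from the values called 22 lower and 0 higher (11.1% and 10.8% of all genes), and DESeq2 24 lower and 0 higher (12.6% and 11.8% of all genes). The median log2 fold change (*isp-1* over WT) was -0.56 for *msp*, -0.55 for *nspd* and -0.27 for *ssp* genes, against -0.01 for all genes. The count fell to 14 without WT 11, to 14 without *isp-1* replicate 6 and to 16 with scaling by library totals.

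The largest decrease in *isp-1* worms was that of *msp-49*, a major sperm protein gene on chromosome II (positions 5194366 to 5194749, plus strand). In *isp-1* worms *msp-49* stood at 19.9, 28.3 and 38.4 normalized CPM (lowest, median, highest), against 35.8, 62.9 and 72.9 in WT worms. One *isp-1* library reached the level of WT 10 and the other 5 lay below every WT library. The log2 fold change was -1.09 (SE 0.186, adjusted p = 4.79e-05). Of the peptide genes, *nspd-5* (chromosome II, positions 4860145 to 4860360) had the largest decrease, with 12.3, 16.9 and 19.8 in *isp-1* worms, against 18.4, 28.1 and 33.1 in WT worms (log2 fold change -0.73, SE 0.154, adjusted p = 0.000698). The single *ssp* gene called was *ssp-34* (chromosome IV, positions 10738279 to 10738602), at 14.2, 20.0 and 24.2 in *isp-1* worms, against 15.9, 29.5 and 32.5 in WT worms. Its log2 fold change was -0.48 (SE 0.147, adjusted p = 0.0186), only 1 *isp-1* library lay outside the WT range, and the call was lost without WT 11 or without *isp-1* replicate 6.

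Of the 9 members that are the 3 most abundant of each family, 6 fell in *isp-1* worms: *msp-81*, *msp-76*, *nspd-1*, *nspd-2*, *nspd-7* and *ssp-34*. For *msp-81* every *isp-1* library (47.5, 68.1 and 81.7, lowest, median and highest) lay below every WT library (87.5, 107 and 121), with a log2 fold change of -0.68 (adjusted p = 0.00693). The same separation held for *nspd-7*, at 19.8, 29.5 and 30.8 in *isp-1* worms, against 40.5, 44.1 and 50.4 in WT worms, and for *nspd-1*, at 27.3, 41.3 and 48.5 in *isp-1* worms, against 52.5, 64.4 and 70.7 in WT worms. In all, 5 of 50 members had *isp-1* libraries entirely below the WT libraries (*msp-56*, *msp-71*, *msp-81*, *nspd-1* and *nspd-7*), where 6.19% of all genes did. The most abundant member of all, *msp-36*, did not pass the test (63, 90.1 and 96.3 in *isp-1* worms, against 66.2, 118 and 146 in WT worms; adjusted p = 0.0797), nor did *ssp-10* (adjusted p = 0.385) or *ssp-16* (adjusted p = 0.539). By position, 11 of the 14 *msp* genes on chromosome II and 4 of the 16 on chromosome IV were called lower in *isp-1* worms, with median log2 fold changes of -0.69 and -0.42. Many of the chromosome II calls depended on single libraries. Those of *msp-40*, *msp-42*, *msp-50*, *msp-74*, *msp-142* and *msp-152* were each lost without WT 11, and also without *isp-1* replicate 6. The 4 calls on chromosome IV were not lost in any setting. The difference between the chromosomes was not tested. One of the chromosome II genes, *msp-31*, lies on the strand of and overlaps *aagr-2*, whose level was 240 ± 19.3 in *isp-1* worms, against 338 ± 61.7 in WT worms (SD, n = 6 each). How the overlap bears on the count of *msp-31* was not tested.

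**Figure D2:**
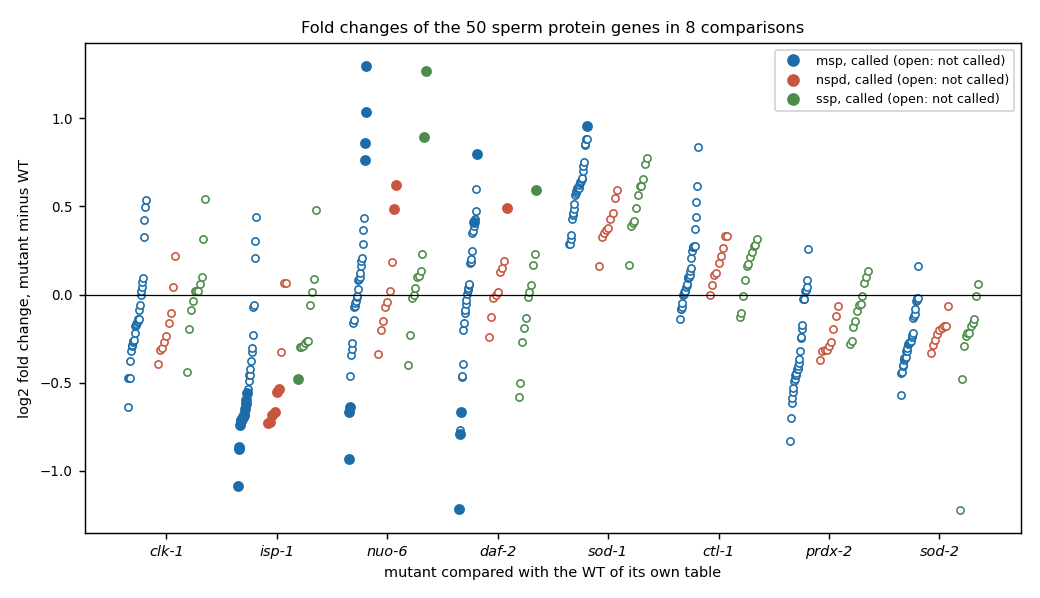
Log2 fold change (mutant over WT of the same experiment, limma on log2 of normalized CPM plus 0.5) of each of the 50 members in each of the 8 comparisons, by family; filled points passed an adjusted p of 0.05, and the line at 0 marks no difference. In *isp-1* worms 22 members passed, all lower, and in *sod-1* worms all 50 lay above 0 with 1 past the threshold.

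In *nuo-6* worms, single members moved in both directions while the family sums stayed near WT. The *msp* sum was 741, 1218 and 1562 in *nuo-6* worms and 746, 1244 and 1529 in WT worms, and the median log2 fold change of the 50 members was 0.03, against 0.02 for all genes. limma called 8 members higher and 3 lower, or 16% and 6% of the members, while 22.5% of all genes were called higher and 14% lower in *nuo-6* worms. Neither share of members exceeded that of all genes. The members called higher were *msp-63*, *ssp-19*, *msp-38*, *ssp-37*, *msp-10*, *msp-65*, *nspd-9* and *nspd-10*, and those called lower were *msp-49*, *msp-74* and *msp-45*.

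The gene with the largest increase in *nuo-6* worms was *msp-63* (chromosome II, positions 5797065 to 5797448), one of the least abundant *msp* genes. It stood at 3.32, 7.61 and 11.5 normalized CPM in *nuo-6* worms (lowest, median, highest), against 1.54, 2.42 and 4.21 in WT worms, with 5 of 6 *nuo-6* libraries above every WT library (log2 fold change 1.30, SE 0.317, adjusted p = 0.00144). *ssp-19* (chromosome I, positions 2562668 to 2562997) showed 5.93, 13 and 17.2 in *nuo-6* worms and 2.19, 4.36 and 6.63 in WT worms, a log2 fold change of 1.27 (SE 0.287, adjusted p = 0.000691), and 4 *nuo-6* libraries lay above every WT library. Another, *msp-38* (chromosome IV, positions 10143357 to 10143740, minus strand), was the only member whose *nuo-6* libraries all exceeded the WT libraries, at 30.5, 51 and 58 in *nuo-6* worms and 13.1, 23.4 and 27.9 in WT worms, where 9.38% of all genes were so separated. Its log2 fold change was 1.04 (SE 0.195, adjusted p = 6.78e-05). *msp-38* overlaps *dhs-12* on the opposite strand, whose level was 53.3 ± 13.3 in *nuo-6* worms and 44.4 ± 9.06 in WT worms (SD, n = 6 each). The library kit keeps the strand, but which strand was counted is not given in the sources used here, so a contribution of *dhs-12* reads to *msp-38* was not tested.

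The peptide genes called in *nuo-6* worms went against the median of their family, which was -0.04. *nspd-9* stood at 4.38, 6.65 and 8.34 in *nuo-6* worms and 2.19, 4.31 and 4.85 in WT worms (log2 fold change 0.62, adjusted p = 0.0106), and *nspd-10* at 11.1, 23.8 and 32.2 in *nuo-6* worms and 8.81, 16.5 and 18.6 in WT worms (log2 fold change 0.48, adjusted p = 0.0393). The *nspd-10* call was lost without any 1 of 7 libraries, WT 10 among them. *ssp-37*, a member with an intron on chromosome I, stood at 5.82, 9.29 and 11.6 in *nuo-6* worms and 2.94, 4.79 and 6.44 in WT worms (log2 fold change 0.89, adjusted p = 0.00166).

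Among the members that fell in *nuo-6* worms, *msp-49* again led, with 17.8, 32.2 and 39.9 in *nuo-6* worms and 35.8, 62.9 and 72.9 in WT worms (log2 fold change -0.93, SE 0.186, adjusted p = 0.000142). Its neighbour *msp-45*, on the same arm of chromosome II, stood at 22.3, 40.5 and 54.4 in *nuo-6* worms and 38.4, 64.2 and 79.5 in WT worms (log2 fold change -0.64, adjusted p = 0.0104). *msp-45* overlaps *srb-13* on the same strand, and how the overlap bears on its count was not tested. *msp-74*, at 0.348, 0.866 and 1.51 in *nuo-6* worms and 1.04, 1.55 and 2.22 in WT worms, was called by limma (log2 fold change -0.66, adjusted p = 0.0341) and not by edgeR (adjusted p = 0.0659). The limma call of *msp-74* was also lost without any 1 of 5 libraries (highest adjusted p = 0.103, without *nuo-6* replicate 3). It was lost as well when limma fitted *nuo-6* with WT alone (adjusted p = 0.0518). The number called lower became 5 without WT 10.

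In *daf-2* worms the families as a whole also lay near WT, and a few members differed. The *msp* sum was 925, 1157 and 1315 in *daf-2* worms and 746, 1244 and 1529 in WT worms, and the median log2 fold change over the members was 0.01, as it was over all genes. limma called 4 members higher (8%) and 3 lower (6%), where 17.4% of all genes were called higher and 16.3% lower in *daf-2* worms. The 3 lower members were all *msp* genes of chromosome II (*msp-49*, *msp-50* and *msp-64*), and the 4 higher ones were *msp-55* and *msp-77* of chromosome IV, *ssp-36* and *nspd-9*.

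The mean of *msp-49* was lower in *daf-2* worms (24.5 ± 3.32, SD, n = 6) than in any other strain, though not tested against the 27.3 ± 6.88 of *isp-1* worms. Its levels were 28.7, 24.2, 21.1, 26.3, 26.5 and 20.2 normalized CPM in replicates 1 to 6, against 62.5, 72.9, 63.3, 35.8, 65.0 and 51.7 in WT 7 to WT 12. Every *daf-2* library lay below every WT library, the only member in which this was so, while 6.78% of all genes were separated in that direction. The log2 fold change of *msp-49* was -1.21 (SE 0.186, adjusted p = 3.65e-06). Its close neighbour *msp-50* (chromosome II, positions 5199797 to 5200180) stood at 25.1, 41.1 and 49.3 in *daf-2* worms and 31.3, 71.6 and 90.2 in WT worms (log2 fold change -0.79, adjusted p = 0.00709), so the groups overlapped. For *msp-64*, 5 of 6 *daf-2* libraries lay below every WT library, at 32, 47 and 54.2 in *daf-2* worms and 51.2, 72.7 and 101 in WT worms (log2 fold change -0.67, adjusted p = 0.0104). The calls of *msp-50* and *msp-64* were lost when 5 libraries that stood apart in the proportions of these genes, namely *nuo-6* replicate 3, *daf-2* replicates 3 and 6, *ctl-1* replicate 1 and *prdx-2* replicate 1, were left out together (adjusted p = 0.102 for *msp-50* and 0.0796 for *msp-64*). DESeq2 called 7 members lower in *daf-2* worms (16.6% of all genes). The count of members called lower by limma was 9 without WT 10 and 5 without *daf-2* replicate 2 or replicate 5.

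Of the members that rose in *daf-2* worms, *msp-55* (chromosome IV, positions 5055631 to 5056014, minus strand) changed most. It stood at 35.4, 45.6 and 62.5 in *daf-2* worms and 17.6, 26.9 and 37.6 in WT worms, and 5 of 6 *daf-2* libraries lay above every WT library (log2 fold change 0.80, SE 0.193, adjusted p = 0.00148). *nspd-9* was the only member whose *daf-2* libraries all exceeded the WT libraries, at 5.16, 5.58 and 7.47 in *daf-2* worms and 2.19, 4.31 and 4.85 in WT worms, where 7.24% of all genes were so separated. Its log2 fold change was 0.49 (adjusted p = 0.0452 by limma), and the call was lost by edgeR (adjusted p = 0.0581), by DESeq2 (0.0565), in a fit with WT alone (0.0590) and without any 1 of 7 libraries (highest adjusted p = 0.148, without WT 10). The least abundant member, *ssp-36*, stood at 1.38, 1.92 and 2.66 in *daf-2* worms and 0.606, 1.14 and 1.62 in WT worms (log2 fold change 0.60, adjusted p = 0.00981). *msp-77* was the only member called in both directions across the strains. Its level was 28.3, 36.3 and 49.3 in *daf-2* worms (log2 fold change 0.41, adjusted p = 0.0495) and 12.5, 17.9 and 22.1 in *isp-1* worms (log2 fold change -0.62, adjusted p = 0.00596), against 21.6, 26.6 and 35.7 in WT worms. The *daf-2* call of *msp-77* was lost without any 1 of 9 libraries (highest adjusted p = 0.131, without *daf-2* replicate 5), by DESeq2 (0.0511) and when *daf-2* was fitted with WT alone (0.0645), so that its call in both directions rests on a value at the threshold. The count of members called higher was 2 without any 1 of WT 10, WT 11, WT 12 and *daf-2* replicate 5.

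**Figure D3:**
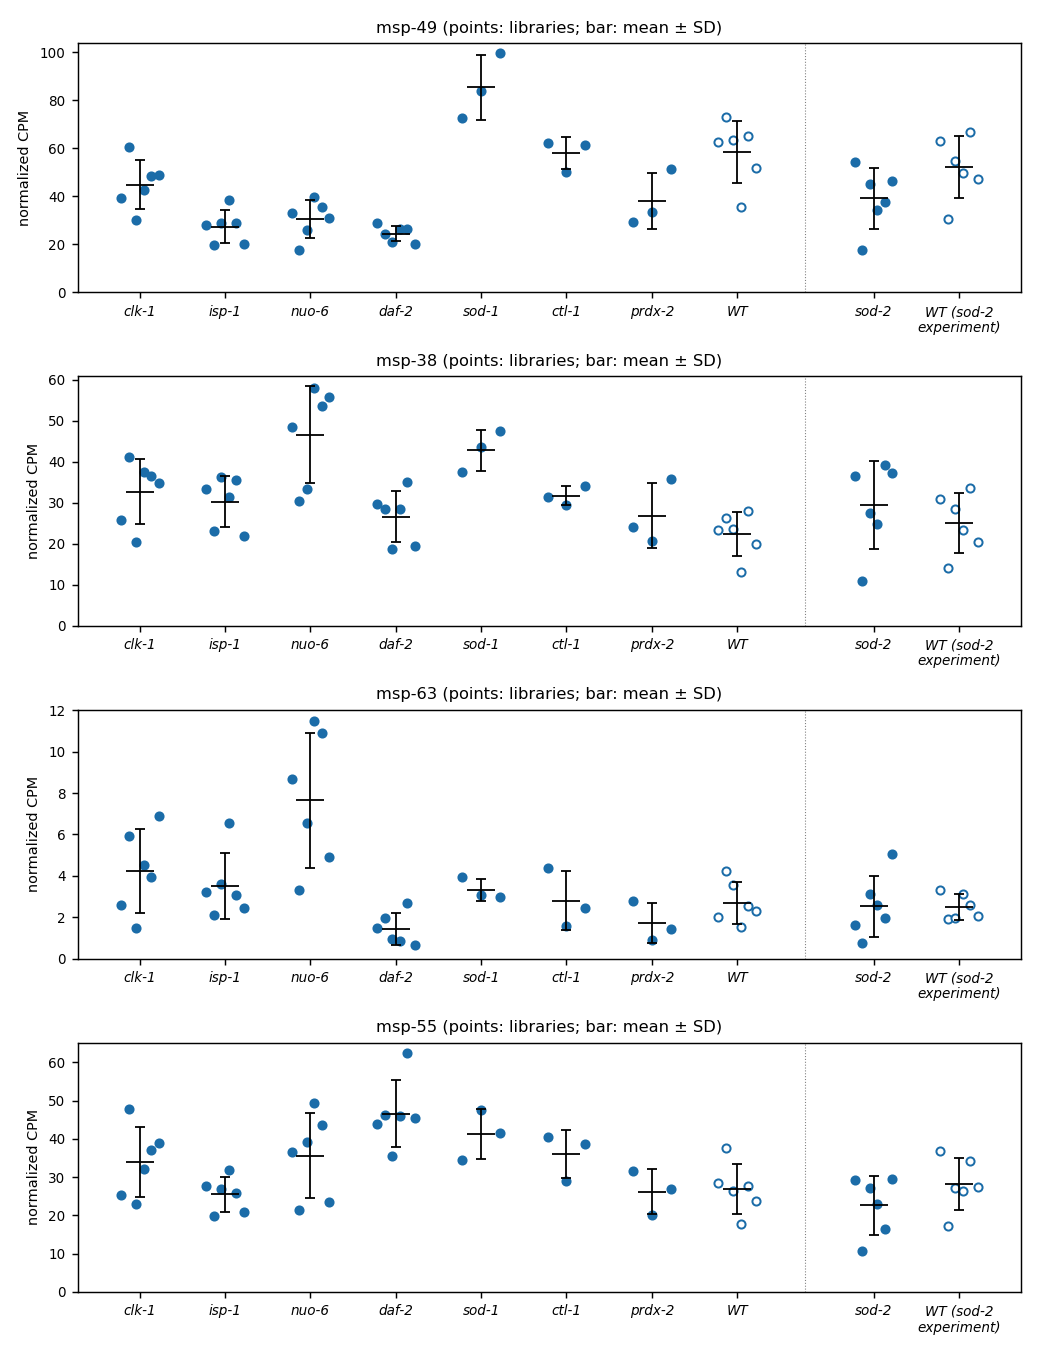
Level of *msp-49*, *msp-38*, *msp-63* and *msp-55* in each library, in normalized CPM, one panel per gene; filled points are mutant libraries, open points WT libraries, and bars give the mean ± SD. *msp-49* lay at 20.2 to 28.7 in *daf-2* worms, below the 35.8 to 72.9 of WT worms, and *msp-38* at 30.5 to 58 in *nuo-6* worms, above the 13.1 to 27.9 of WT worms.

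The highest mean sums of all 3 families were those of *sod-1* worms. In *sod-1* worms the *msp* genes summed to 1519, 1860 and 1862 normalized CPM, against 746, 1244 and 1529 (lowest, median, highest) in WT worms, a ratio of means of 1.45, and the *nspd* genes to 312, 397 and 402 in *sod-1* worms against 198, 280 and 314 in WT worms (ratio 1.35). The *ssp* sum was 190, 234 and 244 in *sod-1* worms, above all 6 WT libraries (80.7, 162 and 186), with a ratio of 1.46. The log2 fold change was above 0 for all 50 members, from 0.16 to 0.95 with a median of 0.58 (all genes -0.01), where 48% of all genes had that sign. For 21 of the 50 members every *sod-1* library exceeded every WT library, while this was so for 2.69% of all genes. Because the members move together within a library, these counts are not 50 or 21 separate observations. The test gene by gene called 1 member higher and 0 lower by limma (34 higher and 0 lower at an unadjusted p under 0.05), where 0.606% of all genes were called higher and 1.96% lower. edgeR called 1 member higher and 0 lower (0.527% and 1.07% of all genes), and DESeq2 2 higher, *msp-38* and *msp-65*, and 0 lower (0.706% and 1.63% of all genes).

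The member called in *sod-1* worms was *msp-38*, with 37.4, 43.6 and 47.4 normalized CPM in *sod-1* replicates 1 to 3, against 23.2, 26.3, 23.6, 13.1, 27.9 and 20.0 in WT 7 to WT 12. The log2 fold change was 0.95 (SE 0.239, adjusted p = 0.0208), and the call was lost without WT 10, without *sod-1* replicate 2 or without *sod-1* replicate 3. The call was also lost when limma fitted *sod-1* with WT alone (adjusted p = 0.159). *dhs-12*, the gene on the other strand, was at 46.8 ± 6.03 in *sod-1* worms (n = 3) and 44.4 ± 9.06 in WT worms (SD, n = 6). Of the other families, *nspd-2* (80.1, 100 and 109 in *sod-1* worms; 43.5, 66.7 and 74.7 in WT worms) had a log2 fold change of 0.60 with an adjusted p of 0.0815, and *ssp-34* (36.9, 42.5 and 40.2 in *sod-1* worms; 15.9, 29.5 and 32.5 in WT worms) one of 0.57 with an adjusted p of 0.094. Both were above every WT library in 3 of 3 *sod-1* libraries and did not pass the test. The most abundant member, *msp-36*, was at 138, 170 and 172 in *sod-1* worms and 66.2, 118 and 146 in WT worms (adjusted p = 0.334). Leaving out WT 7 or WT 8 gave 3 members called higher, leaving out WT 11 gave 2 and leaving out *sod-1* replicate 1 gave 4, while 6 were called without the 5 libraries named above. The 23 oocyte and eggshell genes were also at the upper end in these libraries, with sums of 8495 to 12548 in *sod-1* worms and 3831 to 9879 in WT worms, and 0 of the 23 were called by limma, edgeR or DESeq2 (7 at an unadjusted p under 0.05 by limma). The part of this in the levels of the sperm protein genes was not tested.

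In *prdx-2*, *clk-1* and *ctl-1* worms limma called none of the 50 members in either direction. In *prdx-2* worms 0 were called higher and 0 lower (at an unadjusted p under 0.05, 6 lower), where 6.51% of all genes were called higher and 6.51% lower. edgeR and DESeq2 each called 1 member lower, *msp-64*, and 0 higher, where edgeR called 6.5% of all genes lower and 6.78% higher and DESeq2 8.59% lower and 7.38% higher. The *msp* sum was 758, 821 and 1287 in *prdx-2* worms and 746, 1244 and 1529 in WT worms, so that the 3 *prdx-2* libraries spread over most of the WT range. The log2 fold change was below 0 for 41 of the 50 members, where 51.4% of all genes had that sign. These too are not 41 separate observations. *msp-64* stood at 41.4, 37.3 and 53.2 in *prdx-2* worms and at 51.2, 72.7 and 101 (lowest, median, highest) in WT worms, with a log2 fold change of -0.70 (adjusted p = 0.0565 by limma, 0.0481 by edgeR and 0.0257 by DESeq2). The members of lowest p in the other families were *nspd-1* (50.2 ± 15.5 in *prdx-2* worms, n = 3, and 63.5 ± 6.98 in WT worms, SD, n = 6; adjusted p = 0.263) and *ssp-31* (8.76 ± 4.65 in *prdx-2* worms and 10.2 ± 2.81 in WT worms; adjusted p = 0.518). Without WT 10 or without *prdx-2* replicate 3, 3 members were called lower, and without WT 12, 2 were.

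In *clk-1* worms 0 members were called higher and 0 lower by limma (2 higher and 6 lower at an unadjusted p under 0.05), where 6% of all genes were called higher and 2.27% lower. No member was called by edgeR (5.99% of all genes higher, 2.42% lower) or by DESeq2 (6.82% higher, 3.49% lower). The *msp* sum was 702, 1102 and 1385 in *clk-1* worms and 746, 1244 and 1529 in WT worms. The log2 fold change was below 0 for 32 of the 50 members, where 51.9% of all genes had that sign. *msp-38* had the lowest p, at 20.5, 35.7 and 41 in *clk-1* worms and 13.1, 23.4 and 27.9 in WT worms, with 4 of 6 *clk-1* libraries above every WT library (log2 fold change 0.54, adjusted p = 0.0849). *nspd-9* (adjusted p = 0.224) and *ssp-37* (adjusted p = 0.248) had the lowest p of their families, with log2 fold changes of -0.39 and -0.44. Leaving out WT 10 gave 1 member called lower, and leaving out *clk-1* replicate 3 gave 1 called higher.

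In *ctl-1* worms, too, 0 members were called in either direction by limma, edgeR or DESeq2 (3 higher at an unadjusted p under 0.05 by limma), with 1.05% of all genes called higher and 1.57% lower by limma, 1.19% and 1.45% by edgeR, and 1.62% and 2.23% by DESeq2. The *msp* sum was 1077, 1386 and 1390 in *ctl-1* worms, within the 746 to 1529 of WT worms. The log2 fold change was above 0 for 40 of the 50 members, where 47.8% of all genes had that sign. Here again these are not 40 separate observations. In all, 3 members had *ctl-1* libraries entirely above the WT libraries (*msp-10*, *msp-38* and *msp-77*), or 6% of the members, where 3.21% of all genes did. *msp-77* was at 48.0, 38.1 and 39.2 in *ctl-1* worms and 21.6, 26.6 and 35.7 in WT worms (log2 fold change 0.62, adjusted p = 0.0952). *nspd-2* (log2 fold change 0.33, adjusted p = 0.416) and *ssp-34* (0.32, adjusted p = 0.426) had the lowest p of their families. As *ctl-1* mRNA was not lower in the libraries labelled *ctl-1*, this comparison is of those libraries by their label.

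In the second experiment 0 of the 50 members were called in *sod-2* worms by limma, edgeR or DESeq2 (2 lower and 0 higher at an unadjusted p under 0.05 by limma), where limma called 2.34% of all genes higher and 0.692% lower, edgeR 2.71% and 0.685%, and DESeq2 5.08% and 1.43%. The *msp* sum was 491, 1056 and 1226 in *sod-2* worms (mean 977 ± 270, SD, n = 6) and 723, 1186 and 1495 in WT worms (mean 1171 ± 281, SD, n = 6), a ratio of means of 0.834 that lies within the spread between replicates. The *nspd* sum was 121, 238 and 322 in *sod-2* worms and 153, 268 and 335 in WT worms, and the *ssp* sum 66.3, 125 and 216 in *sod-2* worms and 87.9, 155 and 200 in WT worms. Of the 50 log2 fold changes 48 were below 0, where 51.4% of all genes had that sign, with a median of -0.24 over the members and -0.01 over all genes. As the members move together within a library, these are not 48 separate observations.

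The largest difference in *sod-2* worms was in *ssp-37*, with 3.78, 0.134, 1.67, 0.259, 2.35 and 2.86 normalized CPM in *sod-2* replicates 1 to 6 and 4.49, 2.39, 3.61, 3.55, 5.12 and 4.63 in WT 1 to WT 6. The *sod-2* values were widely spread, 4 of them lay below every WT library, and the log2 fold change was -1.22 (SE 0.441, adjusted p = 0.177). *msp-50* was at 23.9, 46.7 and 56.1 in *sod-2* worms and 41.6, 67.2 and 79.4 in WT worms (log2 fold change -0.57, adjusted p = 0.190), and *nspd-9* at 1.78, 3.19 and 4.21 in *sod-2* worms and 2.89, 3.87 and 5.64 in WT worms (log2 fold change -0.33, adjusted p = 0.398).

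Because the *msp* genes rise and fall together, each was also expressed as a share of the summed *msp* level of its own library, a measure that was chosen after the values had been seen and is given as a description. The shares add up to 100%, so a rise of one lowers the others. *msp-38* took 2.83% to 4.55% of the *msp* level in *nuo-6*, 3.39% to 4.19% in *isp-1*, 2.87% to 3.37% in *clk-1*, 2.02% to 2.66% in *daf-2*, 2.34% to 2.54% in *sod-1*, 2.27% to 2.73% in *ctl-1* and 2.52% to 3.19% in *prdx-2* worms. In the 6 WT libraries it took 1.72% to 1.99% (mean 1.85 ± 0.096%, SD). All 33 mutant libraries of the first experiment thus lay above all 6 WT libraries, which they share as reference. Of the 30 *msp* genes, *msp-38* had the most mutant libraries above WT and *msp-49* the most below. These 2 genes are therefore the extremes of this measure and not typical members. How the overlap of *msp-38* with *dhs-12*, given above, bears on this share was not tested. In the second experiment the share of *msp-38* was 2.21% to 3.56% in *sod-2* worms and 1.94% to 2.25% in WT worms, with 5 of 6 *sod-2* libraries above every WT library. As the WT libraries of the 2 experiments may not be independent, this is not a repeat, here or for *msp-49* below.

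The share of *msp-49* went the other way. It was 2.02% to 2.39% in *daf-2*, 2.20% to 2.74% in *nuo-6*, 3.14% to 4.13% in *isp-1*, 3.83% to 4.42% in *clk-1* and 3.89% to 4.09% in *prdx-2* worms, against 4.63% to 5.06% in WT worms, so that these 5 strains lay wholly below WT. In *ctl-1* (4.43% to 4.67%) and *sod-1* worms (4.52% to 5.35%) the *msp-49* share overlapped with that of WT worms, and 30 of the 33 mutant libraries lay below every WT library. In *sod-2* worms it was 3.43% to 4.44%, against 4.25% to 4.57% in WT worms. Over the 30 *msp* genes, the number whose shares did not overlap with WT was 6 above and 2 below in *isp-1*, 3 above and 2 below in *nuo-6*, 4 above and 5 below in *daf-2*, 4 above and 2 below in *clk-1*, 3 above and 1 below in *sod-1*, 4 above and 1 below in *ctl-1*, and 6 above and 2 below in *prdx-2* worms, with 0 above and 1 below in *sod-2* worms. A group of 3 libraries, as in *sod-1*, *ctl-1* and *prdx-2* worms, clears the WT range more easily than a group of 6. A share of the *msp* sum has no counterpart over all genes, so these counts have no background and are a description only.

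**Figure D4:**
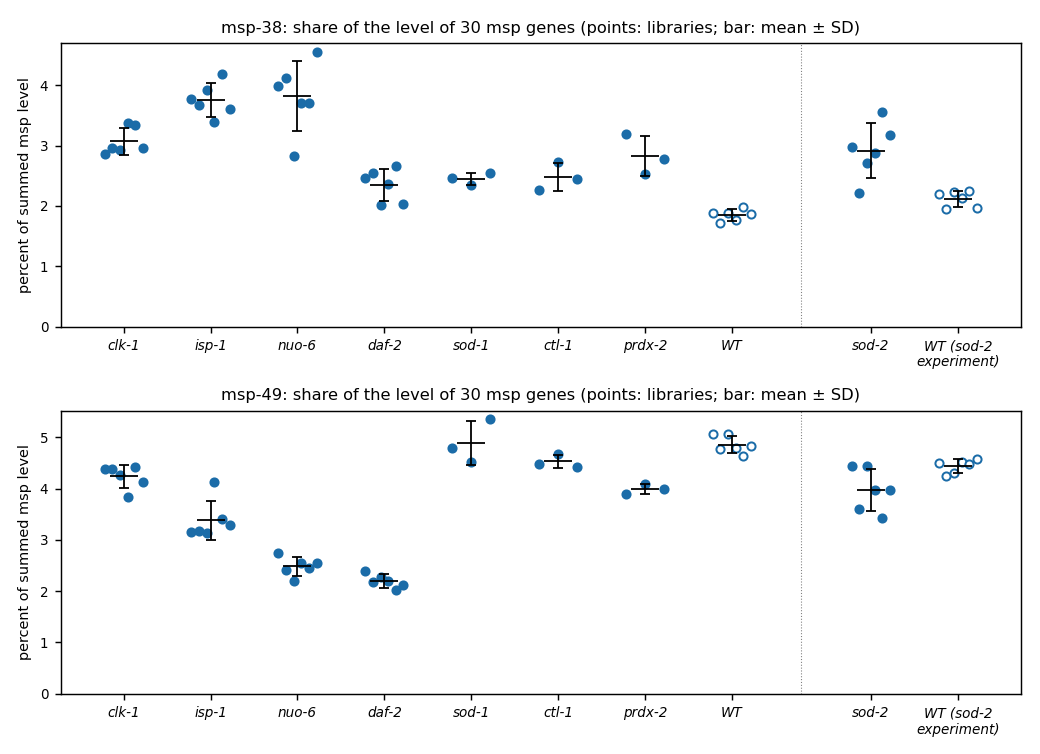
Share of *msp-38* and of *msp-49* in the summed level of the 30 *msp* genes of each library, in percent; filled points are mutant libraries, open points WT libraries, bars give the mean ± SD, and the dotted line separates the *sod-2* experiment. The *msp-38* share in all 33 mutant libraries of the first experiment lay above the 1.72% to 1.99% of their 6 WT libraries.

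For the second experiment an earlier table of read counts for the same 12 libraries was also deposited, in which the reads of some sperm protein genes differ from those of the filtered table. It holds 56 members, the 50 above and *msp-32*, *msp-52*, *msp-58*, *msp-79*, *nspd-11* and *ssp-32*. For 24 of the 50 shared members the mean reads of the 12 libraries agreed within 1.1-fold between the tables. Another 14 members (10 *msp*, 2 *nspd* and 2 *ssp*) had at least 2-fold more reads in the earlier table, or 28% of the members, against 1.51% of the 14562 genes in both tables. The most affected was *msp-65*, with a mean of 8829 reads per library in the earlier and 195 in the filtered table (45.4-fold). It was followed by *msp-10* (30.3-fold), *ssp-9* (17-fold) and *msp-113* (11.1-fold). Summed over its 56 members, the earlier table held 1.81 to 1.85 times the reads of the 50 members of the filtered table in *sod-2* libraries. In WT libraries this ratio was 1.80 to 1.81, and 4 of 6 *sod-2* libraries lay above every WT library. The 2 sums thus cover unlike sets of genes. edgeR called 0 of the 56 members higher and 0 lower in *sod-2* worms from the earlier table (0 higher and 1 lower at an unadjusted p under 0.05), where it called 1.36% of all genes higher and 0.315% lower. How the tables differ in their making is not given in the sources used here, and all calls in the first experiment rest on the filtered values alone. Among the members with at least 2-fold more reads in the earlier table, *msp-10* and *msp-65* were called higher in *nuo-6* worms. Likewise *msp-40*, *msp-56*, *msp-77*, *msp-152*, *nspd-4* and *nspd-6* were called lower in *isp-1* worms, and *msp-77* higher in *daf-2* worms.

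**Figure D5:**
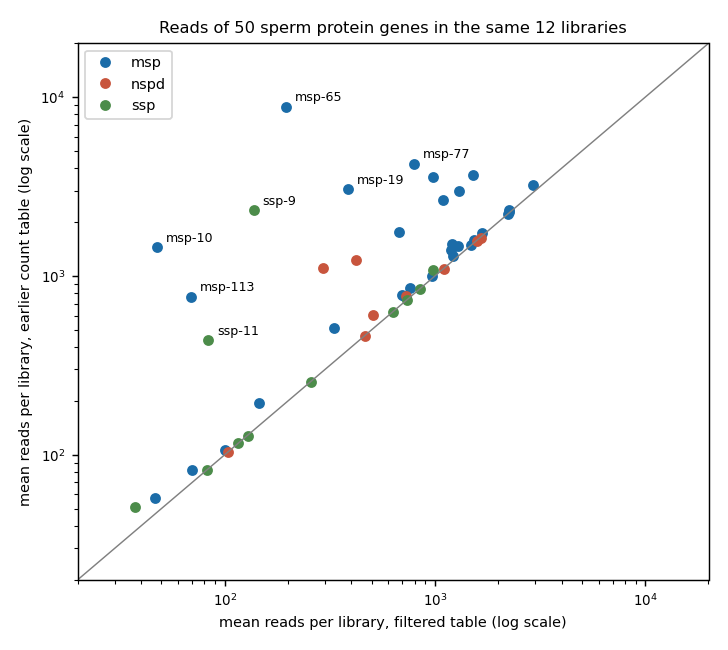
Mean reads per library of the 50 shared members over the same 12 libraries, in the earlier table (vertical axis) against the filtered table (horizontal axis), both axes logarithmic; the line marks equal reads. 24 members lie within 1.1-fold of the line, and *msp-65*, *msp-10*, *ssp-9* and *msp-113* lie at least 10-fold above it.

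Other genes of sperm formation were counted from fixed lists. Of 13 measured genes that encode abundant sperm proteins or MSP-domain relatives, *isp-1* worms had 7 called lower and 0 higher (all genes 10.3% and 11%), with a median log2 fold change of -0.43. *msd-4* fell most, to 33.2 ± 6.50 normalized CPM in *isp-1* worms against 75.0 ± 16.0 in WT worms (SD, n = 6 each; log2 fold change -1.16, adjusted p = 1.73e-05 by limma). It was also lower in *daf-2* (38.8 ± 11.1, log2 fold change -0.96, adjusted p = 0.000101) and in *nuo-6* worms (40.4 ± 10.5, log2 fold change -0.90, adjusted p = 0.000224). In *daf-2* worms *gsp-3*, a sperm protein phosphatase gene, was higher, at 82.0 ± 9.09 against 60.2 ± 10.3 in WT worms (log2 fold change 0.45, adjusted p = 0.0137). limma called 0 of the 13 in *clk-1*, *sod-1*, *ctl-1*, *prdx-2* and *sod-2* worms, where 2, 3, 0, 1 and 3 had an unadjusted p under 0.05, and edgeR called 0 and DESeq2 only 1, in *clk-1* worms.

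Of 22 measured genes of sperm assembly and fertilization, *isp-1* worms again had 7 called lower and 0 higher (all genes 10.3% and 11%). The largest decrease there was that of *spe-19*, a membrane protein gene of sperm activation, at 1.75 ± 0.665 in *isp-1* worms, against 3.02 ± 0.776 in WT worms (log2 fold change -0.66, adjusted p = 0.0461). In *nuo-6* worms 1 of the 22 was called lower (14% of all genes), *ife-1*, which encodes a germline form of the cap-binding factor eIF4E (log2 fold change -0.34, adjusted p = 0.00741). In *daf-2* worms 1 was called in each direction (16.3% of all genes lower, 17.4% higher): *ife-1* was lower (-0.37, adjusted p = 0.00403) and *spe-8*, a tyrosine kinase gene of sperm activation, higher (17.7 ± 3.79 in *daf-2* worms and 10.6 ± 2.13 in WT worms; log2 fold change 0.71, adjusted p = 0.00191). In *sod-2* worms 1 of 23 was called, lower (0.692% of all genes), *spe-29*, which encodes a small membrane protein of sperm activation and stood at 0.370 ± 0.134 in *sod-2* worms and 4.13 ± 1.12 in WT worms (SD, n = 6 each; log2 fold change -2.39, adjusted p = 1.77e-06). limma and edgeR called 0 in *clk-1*, *sod-1*, *ctl-1* and *prdx-2* worms, where 4, 0, 1 and 2 had an unadjusted p under 0.05 in limma, and DESeq2 called 1 in *clk-1* and 1 in *prdx-2* worms.

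Of 18 regulators of sperm fate and spermatogenesis, *daf-2* worms had 4 called higher and 5 lower (all genes 17.4% and 16.3%). *fog-1*, a translational regulator that specifies sperm fate, was at 26.8 ± 3.50 in *daf-2* worms and 13.2 ± 2.94 in WT worms (log2 fold change 1.02, adjusted p = 4.91e-07). *fog-3*, which acts with it, had the largest log2 fold change (1.04, adjusted p = 0.0142 by limma), but its WT libraries spread widely (11 ± 1.06 in *daf-2* worms and 6.75 ± 6.32 in WT worms) and edgeR gave an adjusted p of 0.139. The largest decrease in *daf-2* worms was that of *fem-3* (18.6 ± 7.93 in *daf-2* worms and 28.4 ± 8.66 in WT worms; log2 fold change -0.63, adjusted p = 0.0404), which also promotes the male fate. In *nuo-6* worms 6 were called lower (14% of all genes), led by *fbf-2*, a PUF-family regulator of the switch from sperm to oocytes (20.4 ± 4.72 in *nuo-6* worms and 38.6 ± 2.93 in WT worms; log2 fold change -0.93, adjusted p = 2.77e-08). In *isp-1* worms 3 were lower (10.3% of all genes), led by *alg-3*, an Argonaute gene of spermatogenesis (50.4 ± 9.50 in *isp-1* worms, against 78.2 ± 14.4 in WT worms; log2 fold change -0.63, adjusted p = 0.0173). In *clk-1*, *sod-1*, *ctl-1*, *prdx-2* and *sod-2* worms limma called 0 regulators (1, 1, 2, 2 and 3 at an unadjusted p under 0.05), edgeR 1 in *clk-1* worms and DESeq2 1 in *clk-1*, 1 in *ctl-1* and 2 in *prdx-2* worms.

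For the other tissues, of 23 oocyte and eggshell genes, limma called 0 in *isp-1*, *sod-1*, *clk-1*, *ctl-1*, *prdx-2* and *sod-2* worms, 1 higher (*perm-4*, log2 fold change 0.90) and 2 lower (*oma-2* the most, -0.87) in *nuo-6* worms (all genes 22.5% and 14%), and 3 lower (*rme-2* the most, -0.83) in *daf-2* worms (all genes 16.3%). At an unadjusted p under 0.05 the oocyte genes numbered 7 in *sod-1*, 1 in *ctl-1*, 1 in *prdx-2* and 0 in *isp-1*, *clk-1* and *sod-2* worms, and edgeR and DESeq2 called 0 in these 6 strains. The median log2 fold change of the oocyte list was 0.14 in *isp-1* worms (-0.47 for the 50 sperm protein genes), 0.54 in *sod-1* worms (0.58 for the sperm protein genes) and -0.56 in *sod-2* worms (-0.24 for the sperm protein genes). Of 22 germline genes used in both fates, 1 was called higher (*prg-1*, log2 fold change 0.25) and 2 lower (*csr-1* the most, -0.54) in *isp-1* worms (all genes 11% and 10.3%), 2 higher (*prg-1* the most, 0.37) and 11 lower (*glh-4* the most, -2.02) in *nuo-6* worms (22.5% and 14%), and 1 higher (*syp-1*, 0.50) and 4 lower (*deps-1* the most, -0.40) in *daf-2* worms (17.4% and 16.3%). In the remaining strains 1 germline gene was lower in *clk-1* (*csr-1*, -0.36), *sod-1* (*syp-1*, -0.58) and *prdx-2* worms (*glh-1*, -0.47), and limma called 0 in *ctl-1* and *sod-2* worms (1 and 8 at an unadjusted p under 0.05; edgeR 0 and 0, DESeq2 0 and 1). Only 2 of 12 genes of the male soma were measured in the first experiment and 3 in the second, among them *swm-1*, which was higher in *daf-2* (log2 fold change 0.87), *nuo-6* (0.58) and *isp-1* worms (0.38), and *mab-3*, which was higher in *daf-2* worms by limma (1.17, adjusted p = 0.0477) and not by edgeR (adjusted p = 0.152). Of the 6 vitellogenin genes, yolk protein genes of the intestine, 4 were lower in *daf-2* (*vit-1* the most, -2.48) and *ctl-1* worms (*vit-3*, -3.28), 3 in *prdx-2* worms (*vit-3*, -4.07) and 1 each in *isp-1* (*vit-3*, -2.39) and *sod-2* worms (*vit-3*, -3.32, adjusted p = 0.0478 by limma and 0.132 by edgeR). Whether the oocyte, germline or yolk genes have a part in the levels of the sperm protein genes was not tested.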

How the data were processed

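Gene expression was measured by RNA sequencing of mRNA from whole young adult worms, 39 libraries in one experiment and 12 in another, on a strand-keeping Kapa kit. Groups were taken from the sample labels. The authors aligned the reads with STAR 2.5.2b to WBcel235 and counted reads per gene with the GeneCounts option of STAR against an Ensembl annotation, so reads that map to several copies of a family were not assigned, and normalized with edgeR 3.20.1, per the labels and the study's methods. The 2 filtered tables hold that expression signal as TMM-normalized CPM, as deposited by the authors, after a filter whose rule is not given in the sources used here. Whole reads could be recovered for 99.96% to 100% of the values of each library (tolerance 0.05 read). An earlier table that the authors deposited, although named as CPM, holds raw read counts of the same 12 libraries, so edgeR was used on it in place of limma. All value columns of the tables were mapped to samples (0 left out).

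Each mutant was compared with the WT libraries of its own table with a two-sided limma test (version 3.58.1, R 4.3.3, eBayes with a mean-variance trend) of log2(value + 0.5), all 39 libraries in one fit and the 12 in another, with no covariate. A gene was called where its p, adjusted by Benjamini-Hochberg over all genes of the table, was below 0.05. Fold changes of weakly expressed genes are understated by the added 0.5. The p-values rest on a spread between replicates that is pooled over all groups of a fit and moderated across genes. For *sod-1*, *ctl-1* and *prdx-2*, with 3 libraries each, this spread comes mostly from the replicates of other strains. edgeR 4.0.16 and DESeq2 1.42.0 on recovered reads, other pseudocounts (0.1 and 1), a filter at a mean of 1, scaling by library totals, separate fits, stricter thresholds (adjusted p below 0.01, a log2 fold change of at least 1) and leaving out each library were alternatives, and leaving out 5 libraries together was added after the data had been seen. The chain was tested on simulated data.

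The members and the lists of other genes were chosen with earlier results of these data known. Per-library values are given for the 3 members of each family with the highest mean, and named otherwise are, for each comparison and family, the called members with the largest increase and decrease (or the member of lowest p), called members that go against the median of their family, and the called extremes of each other list. Shares of the summed *msp* level, and members listed by name because a count was small, lie outside this rule. Positions and coding lengths come from the Ensembl release 115 annotation of the same build, in which 47 of the 50 symbols matched. Sequences and promoter motifs were not analysed here.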

Additional observations from a re-analysis of the deposited data

Results flagged for a closer look

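In each group of 6 libraries the lowest and the highest value were compared with the nearest other value, for the named members and the family sums. Of 203 groups 10 held a library that stood apart at the 95% level of Dixon's criterion, where chance gives about 1 in 20.

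In 4 of the 10 the library was WT 10, the WT library low in sperm protein mRNA. In WT 10 *nspd-9* was 2.19 normalized CPM (next lowest WT library 4.05), *nspd-10* was 8.81 (next 14.9), *ssp-31* was 4.76 (next 9.73) and the summed *ssp* level was 80.7 (next 152). *daf-2* replicate 5 stood apart upward in *nspd-9*, at 7.47 (next highest *daf-2* library 6.01), and in the summed *nspd* level, at 325 (next 285).

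The other 4 were single genes. In *isp-1* worms *nspd-7* was 19.8 in replicate 6 (next lowest 27.1), and *msp-63* was 6.55 in replicate 4 (next highest 3.60). *msp-74* was 0.646 in *sod-2* replicate 1 (next lowest 1.67), and it was 2.77 in WT 5 of the same experiment (next highest 1.77).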

How the results depend on the processing

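Leaving out 1 library gave 0 to 1 members called higher and 0 to 1 lower in *clk-1*, 14 to 30 lower in *isp-1*, 7 to 10 higher and 2 to 5 lower in *nuo-6*, 2 to 5 higher and 3 to 9 lower in *daf-2*, 0 to 4 higher in *sod-1* and 0 to 3 lower in *prdx-2* worms. A limit of 1 on the size of the log2 fold change left 1 lower in *isp-1*, 3 higher and 0 lower in *nuo-6*, 0 higher and 1 lower in *daf-2* and 0 higher in *sod-1* worms. An adjusted p below 0.01 left 13 lower in *isp-1*, 5 higher and 1 lower in *nuo-6*, 2 higher and 2 lower in *daf-2* and 0 higher in *sod-1* worms. Fits of a strain with its WT alone called 1 lower in *clk-1*, 2 higher in *daf-2* and 0 higher in *sod-1* worms. DESeq2 called 7 lower in *daf-2*, 2 higher in *sod-1* and 1 lower in *prdx-2* worms, and edgeR 1 lower in *prdx-2* worms. Scaling by library totals gave 16 lower in *isp-1*, 5 lower in *daf-2* and 1 higher in *ctl-1* worms. Without the 5 libraries (added after the data had been seen) 1 was lower in *clk-1*, 1 lower in *daf-2* and 6 higher in *sod-1* worms. The cause of these shifts was not tested. Of 817 values for the 41 calls of single members, 720 stayed past the threshold, 97 lost it and 0 reversed, and 26 of the 41 calls were never lost.

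In the *sod-2* experiment the replicate numbers did not pair the libraries throughout. Same-numbered *sod-2* and WT libraries correlated at 0.00712, 0.731, -0.139, 0.313, 0.152 and 0.251 in replicates 1 to 6 over 13863 genes. Of the 6 only 1, replicate 2, matched its own number best, so these values do not settle whether the numbers mark a pairing. With the replicate number as a block limma called 1 member lower, *msp-50* (log2 fold change -0.57, adjusted p = 0.0412), as did edgeR (1, adjusted p = 0.0439), where 1.04% of all genes were called lower by limma and 0.87% by edgeR, while the earlier table gave 0 with and without the block. In the first experiment the WT libraries are numbered 7 to 12 and share no number with a mutant library, so no block was fitted there.

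Reads that map to several copies were not assigned, which limits the level of each copy, 13 members are under 5 normalized CPM in WT worms, and *sod-1*, *ctl-1* and *prdx-2* have 3 libraries each.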
